A study of Mus musculus with 6 samples.

Results

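SLC25 genes encode the mitochondrial carrier family. They were taken as the protein-coding rows of the deposited gene table whose symbol is Slc25a followed by a number, which gave 47 genes of 54556 in the table, or of 22058 protein-coding genes. The tissue was pancreatic islets of C57BL/6 mice aged 8 weeks on normal chow, measured by RNA sequencing of total RNA in 6 libraries. In 3 libraries the mice were labelled β-Mettl3-KO, which are Mettl3 flox/flox mice that also carry RIP-Cre, a Cre recombinase under a rat insulin promoter that is active in β cells. The other 3 came from Mettl3 flox/flox mice, so both groups carry the floxed allele, and no library was labelled with Cre alone. METTL3 is the catalytic subunit of the enzyme complex that methylates adenosines in messenger RNA (m6A). The labels do not say whether replicates were single mice or pools, so p-values cover the spread from library to library, which may be technical.

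The labelled target gene, Mettl3, did not fall in islets labelled β-Mettl3-KO. Its level was 4.06, 4.20 and 4.15 FPKM in these libraries, against 3.42, 2.89 and 3.93 FPKM in flox/flox libraries, a difference of 0.25 ± 0.11 on the log2 scale (SE, limma adjusted p = 0.12). The value counts all exons of the gene and all islet cells, and the deleted part of the gene was not measured apart, so it does not check the genotype. Each direction below is therefore that of KO-labelled against flox/flox libraries.

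The family is known for a shared fold that crosses the inner mitochondrial membrane and exchanges nucleotides, phosphate, carboxylates, amino acids and cofactors between the cytosol and the matrix. In β cells, mitochondrial oxidation of glucose products raises ATP, which leaves the matrix through ADP/ATP carriers and closes potassium channels before insulin is released. Citrate, malate, aspartate and glutamate, which other carriers move, are also known to link β-cell metabolism to secretion.

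Of the 47 carriers, 37 had a mean of at least 1 FPKM (fragments per kilobase of gene, relative to sequencing depth) over the 6 libraries and were tested, and 10 did not reach it. By limma on log2(FPKM + 0.5) with Benjamini-Hochberg adjustment over all 14497 tested genes, 5 carriers were higher and 1 was lower in KO-labelled libraries at an adjusted p under 0.05. The background in the same fit was 16.9% of genes called higher and 17.2% called lower, against 13.5% and 2.7% of the tested carriers. The share called higher lay near the background and the share called lower was below it. The carriers called higher were Slc25a44, Slc25a5, Slc25a24, Slc25a46 and Slc25a51, and the one called lower was Slc25a14. The other 31 tested carriers did not pass the threshold. For 23 of these 31 the 95% interval of the difference lay within 1.5-fold in either direction. The median difference of the 37 carriers was 0.021 on the log2 scale, beside -0.0045 for all tested genes. Their median absolute difference was 0.15, beside 0.27 for all tested genes. The groups did not overlap for 13 of the 37 carriers (9 higher and 4 lower). Over all 14497 tested genes this held for 7321 (3639 higher and 3682 lower). A lack of overlap named for a carrier below is therefore common among genes in these libraries.

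The scaling of libraries bears on every direction. The deposited FPKM were already scaled so that the median gene had the same level in each library. Scaled to each library's own total instead, the median log2 difference moved to 0.36 for all tested genes and to 0.38 for the carriers. All 37 carriers were then positive, 27 were called higher and 0 lower. Over all 14599 genes tested with that scaling, 7643 were called higher and 709 lower, and positive differences were not counted. Insulin transcripts held 14.4% to 15.1% of reads in KO-labelled libraries and 25.8% to 31.6% in flox/flox libraries, and the mitochondrial genome held 3.04% to 5.36% in KO-labelled libraries and 8.12% to 12.6% in flox/flox libraries. With these transcripts left out of the totals the calls were the same 5 higher and 1 lower. All differences below are relative to the median gene.

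The libraries held 16719393 to 18387313 reads in the KO-labelled group and 16398862 to 17691055 in the flox/flox group. Besides insulin, markers of other cells differed between the groups. All 13 tested lymphocyte and plasma cell markers were higher in KO-labelled libraries, with sums of 1265 to 1990 FPKM against 17.0 to 34.6 FPKM in flox/flox libraries. Enterocyte markers summed to 156, 994 and 513 FPKM in KO-labelled replicates 1, 2 and 3, against 49.9 to 59.8 FPKM in flox/flox libraries. Of the enterocyte markers 17 of 18 tested were higher, none of the 20 was at 0 in a KO-labelled library, 5 to 7 were at 0 in each flox/flox library, and Alpi and Krt20 were at 0 in all 3. Acinar markers were lower for 11 of 15 tested (431 to 771 FPKM in KO-labelled and 902 to 2759 FPKM in flox/flox libraries), β-cell markers for 11 of 12 and endothelial markers for 10 of 10. Of 8 tested ductal markers 2 were higher and 1 lower, and of 7 tested macrophage markers 1 was higher and 3 lower. In these bulk samples, fewer cells of a type and less RNA per cell cannot be told apart, and the part of other cells in the carrier values was not tested beyond the values given below.

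**Figure D1:**
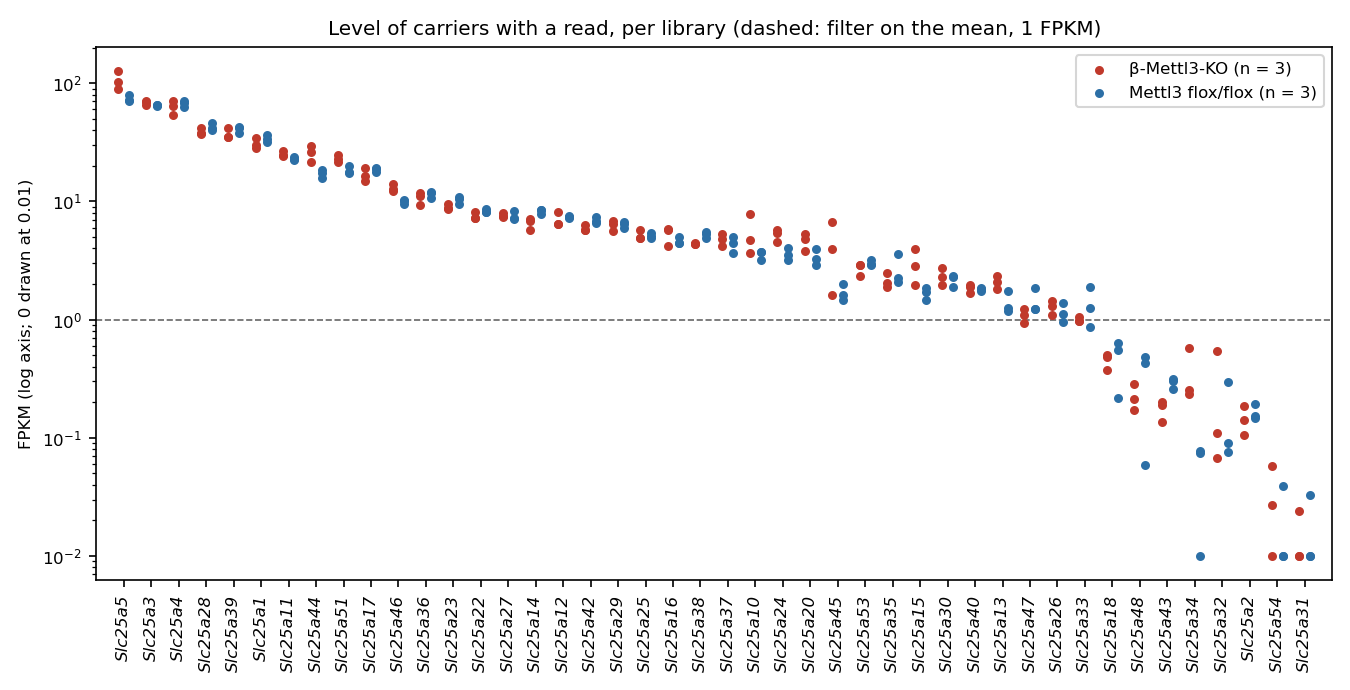
Level of 44 carriers with any read, in FPKM on a log axis, with 1 point per library (KO-labelled left, flox/flox right) and carriers ordered by their mean. Slc25a5, Slc25a3 and Slc25a4 lead at 54.0 to 126 FPKM. Of the 10 carriers with a mean below the dashed filter at 1 FPKM, the 2 with no reads are not drawn.

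To show the start regions of carriers that differed in direction, 4 promoter windows are printed from RefSeq (GRCm38.p6), from 250 bases before to 50 bases after the listed start. They are those of Slc25a5 and Slc25a24 (called higher), Slc25a14 (called lower, the first of 3 listed starts) and Slc25a4, the closest relative of Slc25a5, which was not called. Slc25a5 lies at chrX:36795347-36795646 on the plus strand, Slc25a24 at chr3:109122899-109123198 on the plus strand, Slc25a14 at chrX:48623198-48623497 on the plus strand and Slc25a4 at chr8:46211013-46211312 on the minus strand. Capitals mark matches on either strand to the GC box, spelled GGGCGG, or to the CCAAT box, spelled as its name.
Slc25a5: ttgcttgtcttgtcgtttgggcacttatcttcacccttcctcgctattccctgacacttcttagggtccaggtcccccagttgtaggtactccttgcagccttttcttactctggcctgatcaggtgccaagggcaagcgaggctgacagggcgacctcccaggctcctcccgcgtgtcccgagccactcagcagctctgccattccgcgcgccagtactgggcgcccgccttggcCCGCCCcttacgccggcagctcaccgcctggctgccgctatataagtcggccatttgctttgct
Slc25a4: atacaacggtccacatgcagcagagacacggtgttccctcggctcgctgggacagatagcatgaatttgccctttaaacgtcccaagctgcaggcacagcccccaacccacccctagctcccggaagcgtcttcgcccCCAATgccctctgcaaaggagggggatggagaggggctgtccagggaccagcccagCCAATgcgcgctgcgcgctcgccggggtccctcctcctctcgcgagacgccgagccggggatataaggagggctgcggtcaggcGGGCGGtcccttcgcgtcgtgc
Slc25a24: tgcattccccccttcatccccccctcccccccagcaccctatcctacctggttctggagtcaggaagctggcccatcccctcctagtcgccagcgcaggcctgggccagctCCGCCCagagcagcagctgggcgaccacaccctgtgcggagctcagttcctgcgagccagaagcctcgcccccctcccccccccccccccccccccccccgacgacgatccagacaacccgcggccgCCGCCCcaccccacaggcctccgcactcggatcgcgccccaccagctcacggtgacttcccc
Slc25a14: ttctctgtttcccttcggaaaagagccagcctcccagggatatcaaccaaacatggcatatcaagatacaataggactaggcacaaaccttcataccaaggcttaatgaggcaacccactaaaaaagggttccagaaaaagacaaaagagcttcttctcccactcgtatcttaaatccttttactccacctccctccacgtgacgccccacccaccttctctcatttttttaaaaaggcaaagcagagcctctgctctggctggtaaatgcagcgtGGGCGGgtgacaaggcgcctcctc
The table held windows for 36 of the 47 carriers, 29 of them tested. The letters GGGCGG were present on either strand in 26 of these 29 (89.7%), beside 65.2% of the 9319 promoters of tested genes in the same table, and CCAAT in 15 of 29 (51.7%) beside 38.3%. Neither the NRF1 core spelled CGCATGCG nor the TATA box spelled TATAAA was present in any of the 29 windows, beside 4.06% and 6.94% of promoters of tested genes. Only these exact spellings were searched. The printed windows of Slc25a5 and Slc25a4 both hold the similar letters ATATAAG, so a TATA box in another spelling was not counted. The cyclic AMP response element TGACGTCA was in 1 window and the ETS sequence CCGGAAGT in 1, beside 3.39% and 8.59%. Slc25a4 held CCAAT at 112 and 56 bases before the listed start and the window of Slc25a5 did not hold it, while both held 1 GC box. The window of Slc25a4 lies largely inside the gene as the deposited table draws it, since the table's 5′ end lies 222 bases upstream of the listed start. GC content had a median of 61% in both sets, and a match of letters describes the window only.

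The ADP/ATP and phosphate carriers, which supply the matrix with ADP and phosphate and export ATP, were the most abundant members. Slc25a5 (ENSMUSG00000016319, chrX:36795651-36798807, plus strand), the ADP/ATP carrier ANT2 that is common in dividing cells, was the most abundant carrier by mean FPKM. It had 90.0, 126 and 102 FPKM in KO-labelled replicates 1, 2 and 3, against 72.1, 78.7 and 70.3 FPKM in flox/flox replicates 1, 2 and 3. All KO-labelled libraries lay above all flox/flox libraries, and replicate 2 was the highest. The means were 106 ± 18.5 FPKM in KO-labelled and 73.7 ± 4.41 FPKM in flox/flox libraries (SD, n = 3 each), a log2 difference of 0.51 ± 0.13 (SE, limma adjusted p = 0.0245). Its call was lost without KO-labelled replicate 3 or flox/flox replicate 1 or 3 (limma adjusted p = 0.0687, 0.0703 and 0.0811), and with no filter on low values (limma adjusted p = 0.0542). KO-labelled replicate 1 had the fewest enterocyte transcripts of its group. Its enterocyte sum (156 FPKM) and its lymphocyte and plasma cell sum (1265 FPKM) still lay above those of all flox/flox libraries. This library was also set alone against the flox/flox group. A single library has no spread of its own, so this gives a value and no test, and for Slc25a5 it was 0.29. A pseudogene row, Slc25a5-ps, had 3 to 19 reads per library, and how reads shared with such copies were counted is not given in the sources used here.

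Slc25a4, the ADP/ATP carrier ANT1 typical of heart and muscle, did not pass the test. It had 70.5, 54.0 and 63.5 FPKM in KO-labelled libraries, against 70.1, 68.1 and 63.3 FPKM in flox/flox libraries, and the groups overlapped (log2 difference -0.11 ± 0.11, limma adjusted p = 0.477). The ratio of Slc25a5 to Slc25a4 within a library, which does not depend on the scaling of libraries, was 1.277, 2.338 and 1.600 in KO-labelled libraries, against 1.029, 1.156 and 1.110 in flox/flox libraries. Every KO-labelled library had the higher ratio. The exact two-sided permutation test gave p = 0.1, the smallest that 3 against 3 allows. Slc25a3, the phosphate carrier, had 70.6, 69.7 and 65.8 FPKM in KO-labelled libraries, against 65.4, 64.8 and 64.3 FPKM in flox/flox libraries. These groups did not overlap, yet the log2 difference of 0.08 ± 0.06 did not pass the test (limma adjusted p = 0.331). Its level is divided by a gene length of 5550 bases in the table, while the annotated transcript with its longest coding sequence has 1341 bases. In reads Slc25a3 led Slc25a5, with 23306 against 10617 in KO-labelled and 15985 against 5385 in flox/flox libraries. The order of these carriers by FPKM therefore depends on the gene lengths used. Slc25a31, the testis form of the ADP/ATP carrier, had 1 read in 1 library of each group.

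The ATP-Mg/phosphate carriers set the adenine nucleotide content of the matrix, and Slc25a23, Slc25a24 and Slc25a25 among them are regulated by calcium. Slc25a24 (ENSMUSG00000040322, chr3:109123149-109168457, plus strand) had 4.49, 5.77 and 5.42 FPKM in KO-labelled libraries, against 3.18, 4.05 and 3.53 FPKM in flox/flox libraries. The groups did not overlap, and the log2 difference was 0.48 ± 0.12 (limma adjusted p = 0.024). Its call was lost without KO-labelled replicate 2 or 3 or flox/flox replicate 1 or 3 (limma adjusted p = 0.0678, 0.0862, 0.0689 and 0.0699) and with no filter (limma adjusted p = 0.0567), and KO-labelled replicate 1 alone gave 0.29. Slc25a23 averaged 8.98 ± 0.448 FPKM in KO-labelled and 10.3 ± 0.681 FPKM in flox/flox libraries (SD, n = 3 each), without overlap and without passing the test (limma adjusted p = 0.094). Slc25a25 averaged 5.16 ± 0.477 FPKM in KO-labelled and 5.13 ± 0.244 FPKM in flox/flox libraries, with overlap. Slc25a41 had 0 reads in all 6 libraries, where 3 reads per library is the limit that a count of 0 allows.

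Carriers of carboxylates, which feed citrate export and the malate-aspartate shuttle, gave no call among 3 tested. Slc25a1, the citrate carrier, had 34.5, 28.2 and 30.0 FPKM in KO-labelled libraries, against 36.7, 33.8 and 31.8 FPKM in flox/flox libraries (log2 difference -0.14 ± 0.10, limma adjusted p = 0.293). The groups overlapped through replicate 1 of the KO-labelled group. Slc25a11, the 2-oxoglutarate/malate carrier, had 26.6, 24.4 and 24.8 FPKM in KO-labelled libraries, against 23.7, 22.7 and 22.3 FPKM in flox/flox libraries. All KO-labelled libraries were higher, and the log2 difference of 0.14 ± 0.06 did not pass (limma adjusted p = 0.142). Exons of Rnf167 on the opposite strand cover 8.91% of its exon bases, and Rnf167 averaged 23.6 FPKM, so without strand information some reads cannot be assigned to either. Slc25a10, the dicarboxylate carrier, had 3.62, 7.77 and 4.75 FPKM in KO-labelled libraries, against 3.69, 3.21 and 3.70 FPKM in flox/flox libraries (log2 difference 0.48 ± 0.24, limma adjusted p = 0.165). Its KO-labelled replicate 2 stood alone and replicate 1 lay within the flox/flox range. Slc25a21, the oxodicarboxylate carrier, had 0 reads in all 6 libraries.

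Among 7 tested amino acid carriers 1 was called. Slc25a44 (ENSMUSG00000050144, chr3:88410498-88425139, minus strand), a carrier of branched-chain amino acids known from brown fat, had the largest log2 difference among the called carriers. It had 29.6, 21.7 and 26.1 FPKM in KO-labelled libraries, against 18.4, 15.7 and 17.5 FPKM in flox/flox libraries. The groups did not overlap, and its highest library was KO-labelled replicate 1. Means were 25.8 ± 3.94 FPKM in KO-labelled and 17.2 ± 1.33 FPKM in flox/flox libraries (SD, n = 3 each), a log2 difference of 0.56 ± 0.12 (limma adjusted p = 0.0146). Without KO-labelled replicate 3 the adjusted p by limma was 0.0564. Replicate 1 as the only KO-labelled library gave a log2 difference of 0.77, and it was also the highest of the 3.

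The aspartate/glutamate carriers Slc25a12 and Slc25a13 complete the malate-aspartate shuttle and did not pass the test. Slc25a12, the form of brain and muscle, had 8.12, 6.47 and 6.42 FPKM in KO-labelled libraries, against 7.45, 7.38 and 7.21 FPKM in flox/flox libraries (log2 difference -0.07 ± 0.10, limma adjusted p = 0.611). Slc25a13, the liver form, had 2.07, 2.34 and 1.80 FPKM in KO-labelled libraries, against 1.18, 1.75 and 1.24 FPKM in flox/flox libraries. Its groups did not overlap, with a log2 difference of 0.45 ± 0.17 (limma adjusted p = 0.0783), and without flox/flox replicate 2 it passed (0.58, limma adjusted p = 0.0397). Slc25a22, a glutamate carrier, had 7.24, 8.12 and 7.29 FPKM in KO-labelled libraries, against 8.64, 8.12 and 8.09 FPKM in flox/flox libraries (log2 difference -0.13 ± 0.07, limma adjusted p = 0.222). Its relative Slc25a18 stayed below the filter with 15 to 20 reads per KO-labelled library and 6 to 18 per flox/flox library.

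Slc25a15, the ornithine carrier of the urea cycle, had 1.97, 3.92 and 2.84 FPKM in KO-labelled libraries, against 1.86, 1.46 and 1.72 FPKM in flox/flox libraries. The groups did not overlap, and the log2 difference of 0.61 ± 0.22 did not pass (limma adjusted p = 0.0714). Slc25a2, the other ornithine carrier, had 3 to 5 reads per library in KO-labelled and 3 to 4 in flox/flox libraries. Slc25a38, which supplies glycine for haem synthesis, averaged 4.39 ± 0.0748 FPKM in KO-labelled and 5.22 ± 0.293 FPKM in flox/flox libraries (SD, n = 3 each). It did not overlap between groups and was the uncalled carrier nearest to the threshold (log2 difference -0.22 ± 0.07, limma adjusted p = 0.053). Slc25a29, a carrier of basic amino acids, averaged 6.30 ± 0.586 FPKM in KO-labelled and 6.36 ± 0.376 FPKM in flox/flox libraries.

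**Figure D2:**
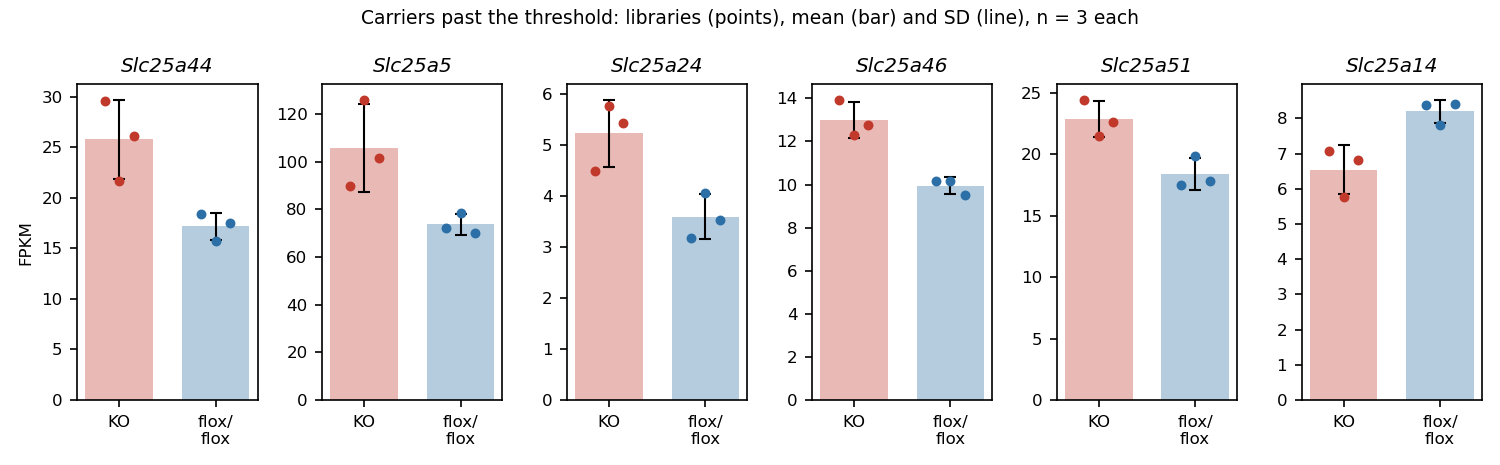
FPKM of the 6 carriers past the threshold in each library (points), with the group mean (bar from 0) and SD (line), n = 3 each, KO-labelled left and flox/flox right. In none of the 6 do the groups overlap, and Slc25a14 alone is lower in KO-labelled libraries.

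Carriers of nucleotides and cofactors gave 1 call among 8 tested. Slc25a51 (ENSMUSG00000045973, chr4:45395923-45408766, minus strand), which brings NAD+ into the matrix, had 24.4, 21.5 and 22.6 FPKM in KO-labelled libraries, against 17.5, 19.8 and 17.8 FPKM in flox/flox libraries. All KO-labelled libraries lay above all flox/flox libraries. The log2 difference was 0.31 ± 0.08 (limma adjusted p = 0.0271). Its call was lost without KO-labelled replicate 1 or 3 or flox/flox replicate 1 or 3 (limma adjusted p = 0.0645, 0.0844, 0.0825 and 0.0892), and KO-labelled replicate 1 alone gave 0.40. Other tested members of the class ranged from -0.25 for Slc25a33, a pyrimidine nucleotide carrier, to 0.15 for Slc25a16 on the log2 scale. Those between them included Slc25a36 (-0.11), also a pyrimidine nucleotide carrier, the peroxisomal Slc25a17 (-0.16), the coenzyme A carrier Slc25a42 (-0.21) and the S-adenosylmethionine carrier Slc25a26 (0.11). Slc25a42 did not overlap between groups, with 5.91 ± 0.323 FPKM in KO-labelled and 6.91 ± 0.389 FPKM in flox/flox libraries (SD, n = 3 each, limma adjusted p = 0.0748). Slc25a32, a folate carrier, was below the filter with 14, 8 and 68 reads in KO-labelled libraries, against 7, 8 and 27 reads in flox/flox libraries.

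Slc25a20, the carnitine/acylcarnitine carrier that admits long-chain fatty acids to the matrix, had 5.26, 3.82 and 4.81 FPKM in KO-labelled libraries, against 3.94, 2.89 and 3.23 FPKM in flox/flox libraries. Only KO-labelled replicate 2 lay within the flox/flox range. The log2 difference of 0.41 ± 0.15 did not pass (limma adjusted p = 0.0706), and without that replicate it was 0.53 and passed (limma adjusted p = 0.0382). Iron carriers, the mitoferrins, were not called. Slc25a28 had 41.6, 38.1 and 37.2 FPKM in KO-labelled libraries, against 45.8, 41.5 and 39.9 FPKM in flox/flox libraries (log2 difference -0.12 ± 0.08, limma adjusted p = 0.288), and Slc25a37, the erythroid form, differed by 0.11 ± 0.13. Of the glutathione importers, Slc25a39 averaged 37.4 ± 3.63 FPKM in KO-labelled and 40.6 ± 2.47 FPKM in flox/flox libraries, and Slc25a40 averaged 1.84 ± 0.151 FPKM in KO-labelled and 1.80 ± 0.038 FPKM in flox/flox libraries (SD, n = 3 each), neither past the test.

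The carriers that resemble uncoupling proteins held the only call in the lower direction. Slc25a14 (ENSMUSG00000031105, chrX:48623413-48662294, plus strand), known as UCP5 and typical of brain, had 7.08, 5.75 and 6.81 FPKM in KO-labelled libraries, against 8.39, 7.82 and 8.40 FPKM in flox/flox libraries. The groups did not overlap, and the log2 difference was -0.31 ± 0.09 (limma adjusted p = 0.0407). The call held when KO-labelled replicate 1 was left out and was lost when any one of the other 5 libraries was left out (limma adjusted p = 0.0605 to 0.115), with no filter (limma adjusted p = 0.0777) and with no trend of the variance (limma adjusted p = 0.0568). Scaled to each library's own total its sign turned, at 0.07. Slc25a27, known as UCP4, and Slc25a30 differed by 0.02 ± 0.08 and 0.07 ± 0.14 on the log2 scale.

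Slc25a46 (ENSMUSG00000024259), a member that sits in the outer membrane and takes part in mitochondrial fission and lipid transfer, had 13.9, 12.3 and 12.8 FPKM in KO-labelled libraries, against 10.2, 10.2 and 9.52 FPKM in flox/flox libraries. The groups did not overlap. The log2 difference was 0.37 ± 0.07 (limma adjusted p = 0.0105), and the call held when any one library was left out (limma adjusted p = 0.0161 to 0.0424). The value of KO-labelled replicate 1 alone was 0.47. Exons of another gene on the opposite strand cover 7.06% of its exon bases, at 0.369 FPKM. Slc25a45 had 1.61, 6.73 and 3.95 FPKM in KO-labelled libraries, against 1.47, 2.01 and 1.63 FPKM in flox/flox libraries, the largest log2 difference of the family and one that did not pass (0.90 ± 0.42, limma adjusted p = 0.141). Of the members with less known roles, Slc25a53, Slc25a35 and Slc25a47 differed by -0.14 ± 0.11, -0.24 ± 0.20 and -0.27 ± 0.19. Rangrf, on the opposite strand, covers 31.3% of the exon bases of Slc25a35. Below the filter, Slc25a34 had 14, 30 and 13 reads in KO-labelled libraries, against 3, 3 and 0 reads in flox/flox libraries. Slc25a48 had 12 to 20 reads per KO-labelled and 3 to 24 per flox/flox library, Slc25a43 had 5 to 7 per KO-labelled and 7 to 8 per flox/flox library, and Slc25a54 had 0 to 2 per KO-labelled and 0 to 1 per flox/flox library.

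**Figure D3:**
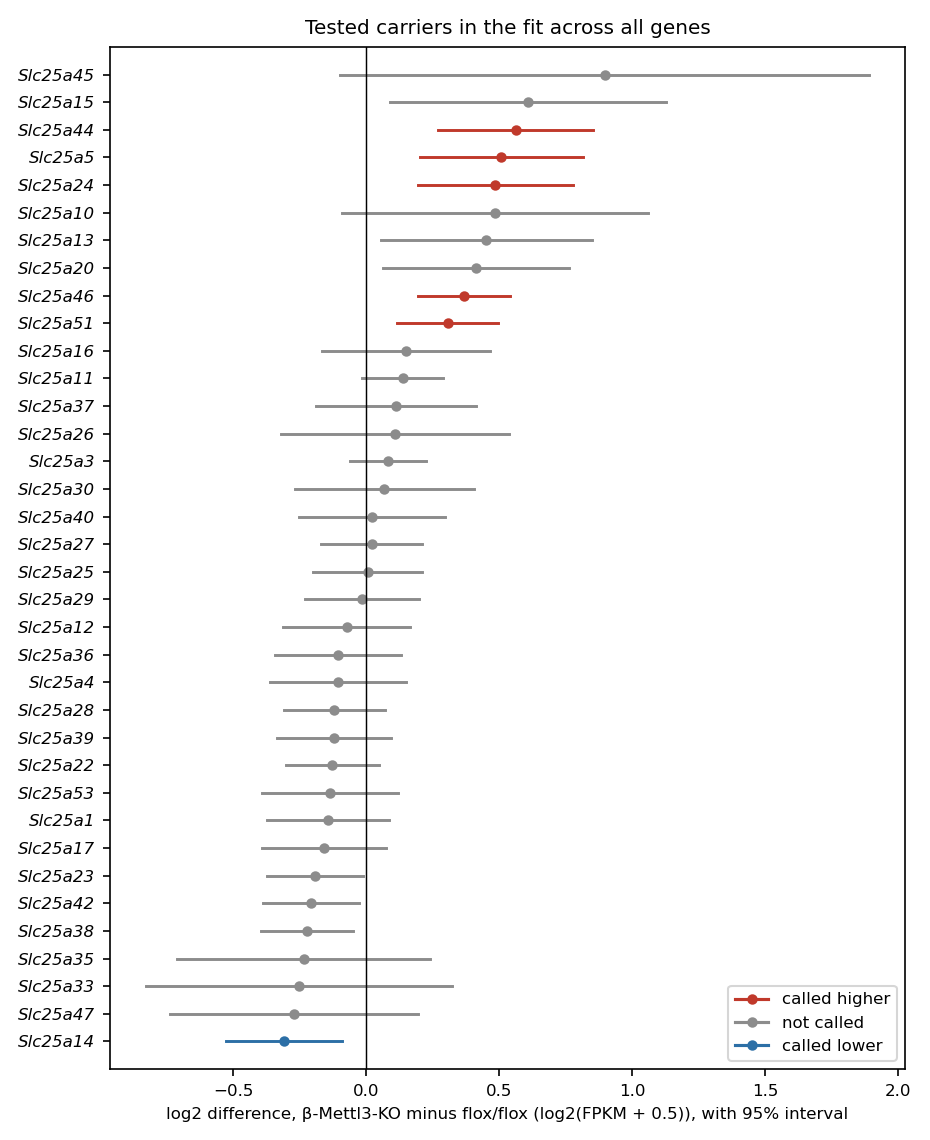
Log2 difference of 36 of the 37 tested carriers, KO-labelled minus flox/flox on log2(FPKM + 0.5), with its 95% interval, in order of size. Red points were called higher, blue lower and grey not called, and Slc25a45 at 0.90 has the widest interval.

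Carriers also varied within the KO-labelled group. The 4 carriers with the widest range among KO-labelled libraries, Slc25a45 (1.78 on the log2 scale), Slc25a10 (1.00), Slc25a15 (0.84) and Slc25a5 (0.48), were each highest in replicate 2 and lowest in replicate 1, the order of the enterocyte sum. That order was found in 9 of 37 tested carriers (24.3%) and in 24.1% of all tested genes. The lymphocyte and plasma cell sum had it too, at 1264.9, 1990.1 and 1552.5 FPKM in KO-labelled replicates 1, 2 and 3. So did the share of mitochondrial-genome reads (3.04%, 5.36% and 4.13%), and the acinar sum had the reverse order (771, 431 and 571 FPKM). Without KO-labelled replicate 1, Slc25a45, Slc25a10 and Slc25a15 passed the test (log2 differences 1.37, 0.71 and 0.82, limma adjusted p = 0.0108, 0.0482 and 0.0193). With replicate 1 as the only KO-labelled library the difference of Slc25a45 was -0.05, a value with no test. The order alone cannot tell these quantities apart, and the part of enterocyte or other transcripts in the carrier values was not tested.

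**Figure D4:**
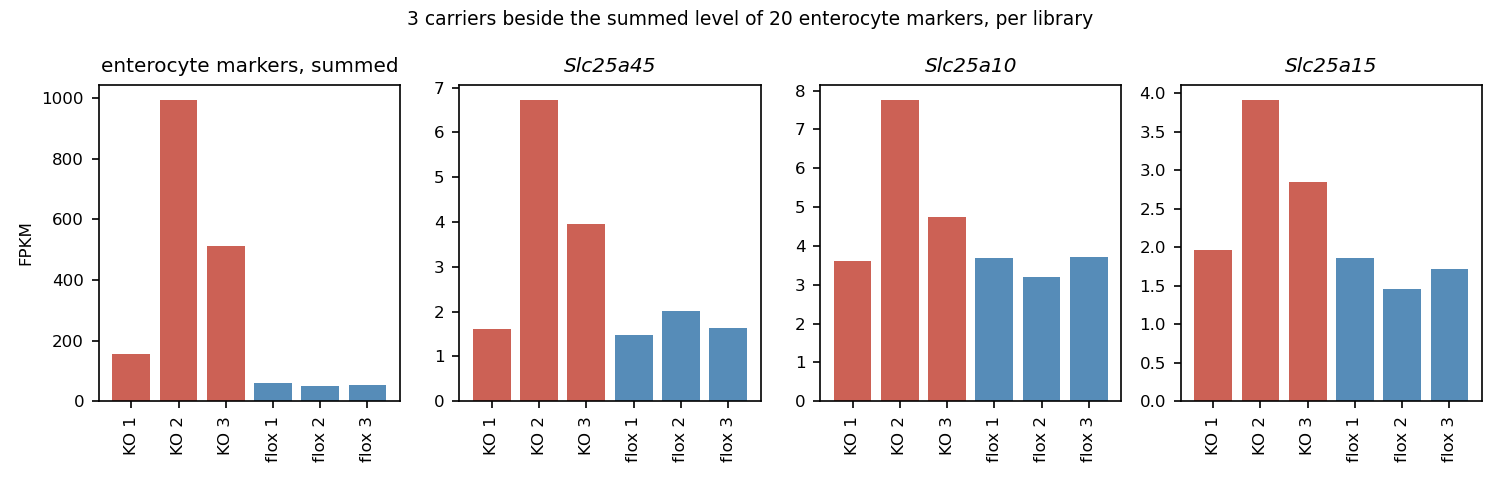
Summed FPKM of 20 enterocyte markers and FPKM of Slc25a45, Slc25a10 and Slc25a15 in each library, KO-labelled (red) left and flox/flox (blue) right, each axis from 0. KO-labelled replicate 2 is the highest in all 4 panels, at 994 FPKM for the markers, and replicate 1 lies close to the flox/flox libraries for Slc25a45 and Slc25a10. The lymphocyte and plasma cell sum, which is not drawn, had the same order among KO-labelled libraries.

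Summed over the family, carriers came to 573 ± 12.0 FPKM in KO-labelled and 532 ± 11.3 FPKM in flox/flox libraries (SD, n = 3 each), without overlap (exact permutation p = 0.1, the smallest possible). Slc25a3, Slc25a4 and Slc25a5 held 41.4% ± 1.98 of that sum in KO-labelled and 38.7% ± 0.813 in flox/flox libraries (exact permutation p = 0.2, n = 3 each). Slc25a5 alone averaged 106 FPKM in KO-labelled and 73.7 FPKM in flox/flox libraries. In recovered reads, carriers took 0.225% of KO-labelled and 0.160% of flox/flox libraries. Unlike the other differences, these are shares of each library's own total and are not relative to the median gene. Insulin and the mitochondrial genome held less of that total in KO-labelled libraries. Ratios of related carriers within a library were compared for 9 of 10 chosen pairs, and 5 did not overlap between groups, beside 7321 of all 14497 tested genes taken singly. Besides Slc25a4/Slc25a5 (-0.62 on the log2 scale, KO-labelled minus flox/flox) these were Slc25a12/Slc25a13 (-0.52), Slc25a23/Slc25a24 (-0.68), Slc25a25/Slc25a24 (-0.48) and Slc25a14/Slc25a30 (-0.38), of which the pairs with Slc25a24 are not independent. Each had an exact permutation p = 0.1, the smallest possible with n = 3 each, which is 0.18 after adjustment over the 9 pairs. The pairs Slc25a28/Slc25a37, Slc25a39/Slc25a40, Slc25a33/Slc25a36 and Slc25a10/Slc25a11 overlapped. The tenth pair was not compared because Slc25a18 was below the filter.

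**Figure D5:**
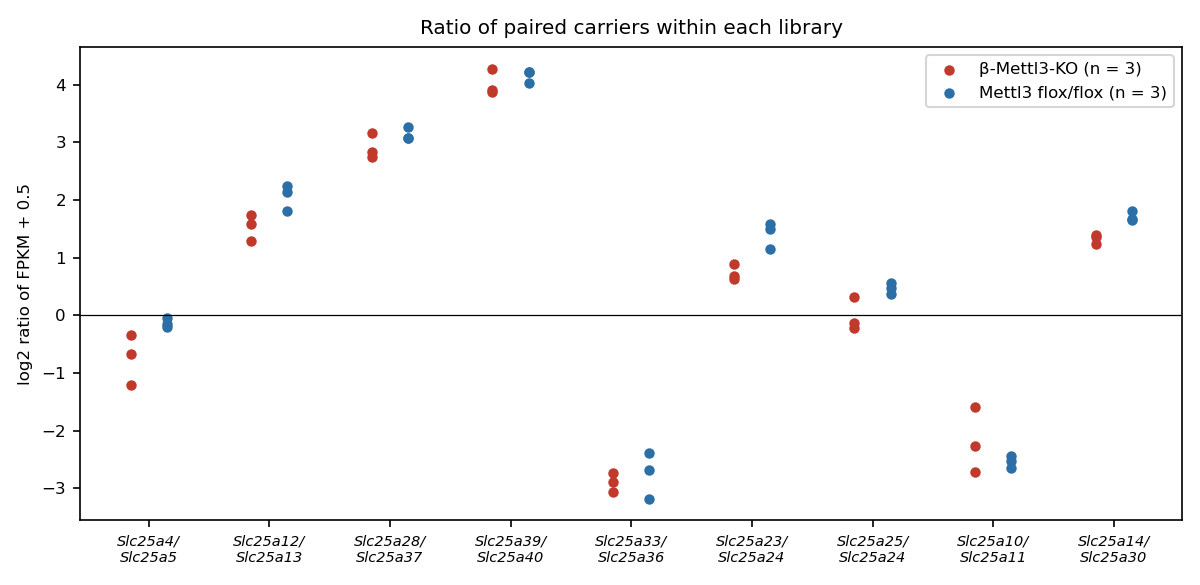
Log2 ratio of FPKM + 0.5 for 9 pairs of related carriers within each library, KO-labelled (red) left and flox/flox (blue) right. The groups do not overlap for 5 pairs. As the pairs are written, the KO-labelled ratios are the lower ones in each of these, and the direction turns if the other carrier is put first.

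Genes that encode family members under other names were read in the same fit. Ucp2, the uncoupling protein known from β cells, had 44.7, 37.5 and 39.9 FPKM in KO-labelled libraries, against 32.5, 24.9 and 28.9 FPKM in flox/flox libraries, and was called higher (0.50 ± 0.12, limma adjusted p = 0.0182). Mtch1, an outer-membrane member that inserts proteins, had 58.4, 54.1 and 48.6 FPKM in KO-labelled libraries, against 94.3, 77.9 and 88.3 FPKM in flox/flox libraries, and was called lower (-0.69 ± 0.10, limma adjusted p = 0.00362). Mtch2 was not called, and Ucp1 and Ucp3 were below the filter.

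The enzymes that work with the carriers were counted in lists chosen with earlier results known, and shares are to be read against the same 16.9% and 17.2%. Of 27 tested enzymes of the malate-aspartate and glycerol phosphate shuttles, citrate cycle and anaplerosis, 3 were higher and 5 lower. The largest differences were in Pcx, pyruvate carboxylase (-1.23 ± 0.08, limma adjusted p = 0.000196), Me2, a mitochondrial malic enzyme (1.03 ± 0.23, limma adjusted p = 0.017), and Idh2, a mitochondrial isocitrate dehydrogenase (-0.88 ± 0.07, limma adjusted p = 0.000358). Me2 had 8.09, 16.2 and 11.6 FPKM in KO-labelled replicates 1, 2 and 3, against 4.77, 6.12 and 5.35 FPKM in flox/flox libraries. Its order in the KO-labelled group was that of the enterocyte sum and of the lymphocyte and plasma cell sum.

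Around Slc25a20, 4 of 14 tested genes of fatty acid entry and oxidation were higher and 2 lower. Hadh, a hydroxyacyl-CoA dehydrogenase abundant in β cells, was lower (-0.91 ± 0.10, limma adjusted p = 0.00121), as was Cpt1c (-0.52 ± 0.12, limma adjusted p = 0.0159), and Cpt2, which reforms acyl-CoA after Slc25a20, was higher (0.42 ± 0.09, limma adjusted p = 0.0136). Around Slc25a15 and Slc25a38, 4 of 17 tested genes of ornithine, glycine and one-carbon metabolism were higher and 5 lower. Arg2, mitochondrial arginase, had 0.974, 18.0 and 7.29 FPKM in KO-labelled replicates 1, 2 and 3, against 0.0485 to 0.189 FPKM in flox/flox libraries (3.23 ± 0.84, limma adjusted p = 0.027). Shmt1 was higher by 1.54 ± 0.20 (limma adjusted p = 0.00234) and Oat, ornithine aminotransferase, by 0.99 ± 0.22 (limma adjusted p = 0.0146). Arg2 followed the order of the enterocyte sum and of the lymphocyte and plasma cell sum, as Slc25a15 did.

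Of 12 tested genes of the machinery that imports carriers into the inner membrane, 3 were higher and 1 lower. These were Timm8a1 (0.66 ± 0.20, limma adjusted p = 0.0436), Timm8b (-0.39 ± 0.08, limma adjusted p = 0.0135), Tomm70a, the receptor that binds carrier precursors (0.34 ± 0.07, limma adjusted p = 0.015), and Tomm22. Of 14 tested genes of iron, haem and glutathione, Gclc was higher (0.20 ± 0.06, limma adjusted p = 0.0487) and Gpx4 lower (-0.64 ± 0.06, limma adjusted p = 0.000836). Of 21 tested genes of other transport across mitochondrial membranes 0 were higher and 5 lower, led by the sideroflexins Sfxn4 (-0.62 ± 0.10, limma adjusted p = 0.00529) and Sfxn2 (-0.52 ± 0.12, limma adjusted p = 0.0196) and by Abcb8 (-0.30 ± 0.09, limma adjusted p = 0.0492).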

How the data were processed

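RNA was sequenced from islets of 3 KO-labelled and 3 flox/flox mice or pools. Per the submitters' processing notes the build was GRCm38.p6 and the tools named were featureCounts 1.5.0-p3, DESeq2 1.16.1 and HISAT2 2.0.5, with no role or order. The authors deposited 1 table of FPKM per gene and library, with gene lengths; the strand setting is not given in the sources used here. The values were whole multiples of 1 read in 100% of cases within 0.1, which gave the reads used for depth. Median-of-ratios factors of the deposited FPKM were equal in all 6 libraries, so they were taken as scaled already.

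Differences were fitted over all 14497 genes with a mean of at least 1 FPKM by limma 3.58.1 (R 4.3.3) on log2(FPKM + 0.5), two-sided, Benjamini-Hochberg adjusted, called at an adjusted p under 0.05, with no covariate; fold changes on this scale understate the change of low genes. The script was tested on simulated data. Ratios within libraries and sums used exact permutation tests. The 95% intervals come from the spread between libraries in this fit, the limit of 3 reads covers counting error only, and 24 to 8167 reads per library lay behind the tested carriers.

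The members and lists were chosen with earlier results of these data known. The named genes were every carrier, with values in each library for called carriers, the 4 most abundant ones and 9 set names, and up to 3 called genes of each related list. Slc25a10, Slc25a15, Slc25a45 and others given per library beyond these were chosen after their values were seen. Alternatives were other pseudocounts (0.1 and 1), no filter or one at 5 FPKM, own-total and quantile scaling, no variance trend, a replicate block and leaving out each library; KO-labelled replicate 1 alone was added after seeing the data. Promoters came from RefSeq and exon overlaps from GENCODE M21, in which all 47 symbols matched. Proteins were not used here. The values of 1 tested carrier, included in the counts and sums, are not reported here.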

Additional observations from a re-analysis of the deposited data

How the results depend on the processing

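KO-labelled replicate 1 alone gives no test and is left out of this account of calls. The call of Slc25a46 held under every other alternative, and that of Slc25a44 was lost only without KO-labelled replicate 3. The calls of Slc25a5, Slc25a51, Slc25a24 and Slc25a14 were each lost under several alternatives. Own-total scaling called 27 of the 37 carriers and 7643 of 14599 genes higher, so it says little about any single higher call. Pseudocounts of 0.1 and 1, and own-total scaling without insulin and the mitochondrial genome, gave the same 5 carriers higher and 1 lower. Correlations between same-numbered KO-labelled and flox/flox libraries were small, at 0.0811, 0.0751 and 0.0423, yet they were the only positive ones. Those between libraries of different number ran from -0.0679 to -0.0106. Whether the replicate numbers pair the libraries was not tested. With a replicate block 5 carriers were higher and 1 lower (2313 and 2346 over all genes), of which 4 higher ones were shared; Slc25a51 was lost (limma adjusted p = 0.0595) and Slc25a20 gained (limma adjusted p = 0.0231).

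Counts of carriers called higher were 3 with no filter, 27 with own-total scaling, 1 to 7 on leaving out a library and 1 with KO-labelled replicate 1 alone. Counts called lower were 0 with no filter, own-total scaling, no variance trend or KO-labelled replicate 1 alone, 3 with quantile normalization and 0 to 1 on leaving out a library. Over all genes, calls were 1247 higher with a filter at 5 FPKM (fewer genes tested), 7643 higher and 709 lower with own-total scaling, 1314 to 2054 higher and 1399 to 2123 lower on leaving out a library, and 590 higher and 555 lower with KO-labelled replicate 1 alone (fewer samples). The median of the carriers was -0.073 with the 5 FPKM filter and 0.38 with own-total scaling, where that of all genes was 0.36. In the fit with KO-labelled replicate 1 alone, that library is assumed to vary like the flox/flox ones, so its calls show nothing about the spread of the KO-labelled group. The causes of the other changes were not tested.

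Signs turned as follows, on the log2 scale. With own-total scaling the values became 0.30 for Slc25a4, 0.28 for Slc25a28, Slc25a39 and Slc25a36, 0.26 for Slc25a1, 0.24 for Slc25a17, 0.19 for Slc25a23, 0.25 for Slc25a22, 0.072 for Slc25a14, 0.31 for Slc25a12, 0.17 for Slc25a42, 0.36 for Slc25a29, 0.14 for Slc25a38, 0.21 for Slc25a53, 0.10 for Slc25a35, 0.017 for Slc25a47 and 0.028 for Slc25a33. With quantile normalization they became 0.0072 for Slc25a4, 4.9e-05 for Slc25a28, -0.053 for Slc25a25, -0.061 for Slc25a30, -0.11 for Slc25a40 and -0.087 for Slc25a26. With KO-labelled replicate 1 alone they became 0.070 for Slc25a4, 0.035 for Slc25a39, 0.017 for Slc25a1, 0.028 for Slc25a17, 0.026 for Slc25a36, 0.14 for Slc25a12, -0.041 for Slc25a37, -0.054 for Slc25a45 and -0.087 for Slc25a40. On leaving out a library the ranges crossed 0 for Slc25a27 (-0.016 to 0.084), Slc25a29 (-0.067 to 0.055), Slc25a25 (-0.063 to 0.043), Slc25a30 (-0.031 to 0.16), Slc25a40 (-0.012 to 0.076) and the Slc25a33/Slc25a36 ratio (-0.36 to 0.033). None of these was a called value except that of Slc25a14.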

Other observations

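In 4 pairs, carriers lay within 100000 bases of each other, and Slc25a29/Slc25a47 was the one pair with both members tested. Slc25a29 and Slc25a47 start 162 bases apart on opposite strands of chromosome 12, the closest pair of these, and their log2 differences were -0.02 and -0.27, neither past the test. Slc25a24, called higher, lies 6461 bases from Slc25a54, which had 0 to 2 reads per KO-labelled and 0 to 1 per flox/flox library. Slc25a5, also called higher, lies 18448 bases from Slc25a43, with 5 to 7 reads per KO-labelled and 7 to 8 per flox/flox library. Slc25a41, at 0 reads, lies 2056 bases from Slc25a23.

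GGACT, a core of the sequence that the METTL3 complex methylates, was counted in 1 annotated transcript per gene. Carriers held a median of 1.13 matches per kilobase (n = 37), beside 1.05 for all 12007 tested genes with a transcript, and 67.6% of carriers held one in the 3′ untranslated region, beside 57.4%. Among carriers called higher, Slc25a44 held 1.68 matches per kilobase, Slc25a5 held 1.61, Slc25a24 held 1.17, Slc25a51 held 1.13 and Slc25a46 held 0.458. Slc25a14, called lower, held 0, as did the uncalled Slc25a28. The densest carriers were the uncalled Slc25a25 (2.73), Slc25a33 (2.65) and Slc25a39 (2.37). Across the 37 carriers, Spearman's rho between matches per kilobase and the log2 difference was 0.20, and -0.0092 across all genes. Transcript length gave a rho of 0.31 across carriers and 0.11 across all genes, and GC content gave -0.29 and -0.11. The value for the matches was thus the smallest in size of these among carriers. Carriers are not independent replicates, share libraries and also differ in base composition. The letters do not show that a site is methylated, and no methylation values were used here.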
